A study of Mus musculus with 12 samples.

Results

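The collagen genes were taken as every gene of the table whose symbol is Col, a number, the letter a and a number, with nothing more, which gave 44 chains of 25232 genes. They are described here in epididymal white adipose tissue (eWAT), the fat pad beside the epididymis of male mice, by RNA sequencing of whole tissue from 4 groups of 3 C57BL/6 mice: wild type on normal diet (ND_WT), TKO on normal diet (ND_TKO), wild type on high-fat diet (HFD_WT) and TKO on high-fat diet (HFD_TKO). TKO is the submitters' name for the mutants, and the series title places the loss of TET proteins in adipocytes. The Cre line, the deleted exons, the ages and the weeks on diet are not given in the sources used here. The 3 libraries of a group are stated to be biological replicates.

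Collagens are triple-helical proteins of the extracellular matrix, whose chains are modified and folded in the endoplasmic reticulum, secreted, trimmed and crosslinked. Fibrillar collagens (types I, III and V among them) form the tensile fibres of the stroma, type IV forms the sheet of the basement membrane that wraps every adipocyte and vessel, and type VI forms beaded filaments at the border between them. In fat, fibroblasts and their progenitors make most of the fibrillar chains, adipocytes and endothelial cells make basement membrane, and matrix accumulates when the tissue expands on a rich diet. TET enzymes oxidise 5-methylcytosine at CpG dinucleotides, a step toward removal of DNA methylation.

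The libraries held 20973140 to 25606629 reads assigned to genes, so that 3 reads corresponded to 0.117 to 0.143 CPM, the deposited unit, which scales each library to the same total. The tissue carried its defining adipocyte markers, with a summed CPM of 8 markers of 41554 to 46299 in ND_WT, 51937 to 55862 in ND_TKO, 24200 to 26858 in HFD_WT and 44829 to 46307 in HFD_TKO, and 6 genes of the epididymal epithelium summed to 0.142 to 3.89 CPM over all libraries. The targeted enzymes did not check the labels, because reads were counted over whole genes in whole tissue: Tet1 had a mean of 0.905, 2.66, 0.899 and 2.26 CPM in the 4 groups as listed above, Tet2 had 18.9, 18.1, 15.9 and 11.2, and Tet3 had 39.1, 45.9, 68.9 and 60.8. ND_WT replicate 3 stood apart from the other 2 ND_WT libraries for many collagen chains, on the side of the TKO libraries for several of them, and it is shown with the others for each chain given by library. In bulk tissue, fewer cells of a type and less RNA per cell cannot be told apart.

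Levels were compared between chains per kilobase of the longest coding transcript. In ND_WT the highest was Col3a1, the type III chain of reticular fibres, at 214 CPM per kb, followed by Col4a1 at 184 and Col4a2 at 111. In ND_TKO the order of the highest 3 was Col4a1 (271), Col3a1 (229) and Col6a1 (227). In HFD_WT it was Col3a1 (606), Col4a1 (354) and Col6a1 (247). In HFD_TKO the type VI chains Col6a1 and Col6a2 came first, at 461 and 425 CPM per kb, before Col3a1 at 417 and Col4a1 at 381. The 3 libraries of each of these 4 chains overlapped in range with those of the others. Col1a1, the major chain of type I collagen, ranked the tenth, eleventh, eighth and twelfth of 44 in the same groups.

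**Figure D1:**
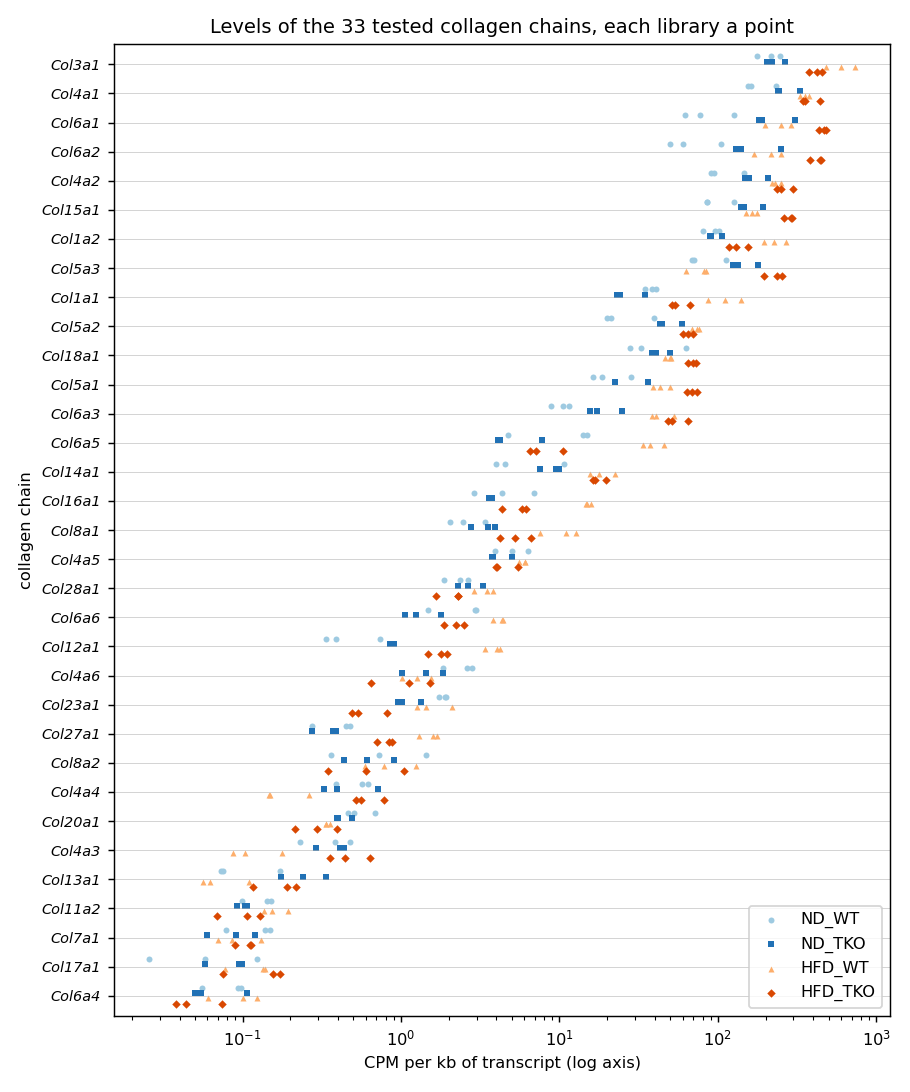
Levels of the 33 tested collagen chains in CPM per kb of transcript on a log axis, 1 point per library, with ND_WT, ND_TKO, HFD_WT and HFD_TKO marked by colour and shape and the chains ordered by their mean over all 12 libraries. Levels span more than 3 decades, Col3a1 is at the top, and the HFD_TKO points lie to the right of the HFD_WT points for Col6a1, Col6a2, Col15a1 and Col5a3 but to their left for Col1a1, Col1a2, Col16a1 and Col6a5.

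Of the 44 chains 33 reached 0.5 CPM in at least 3 libraries and were tested. The other 11 were Col2a1, Col9a1, Col9a2, Col9a3, Col10a1, Col11a1, Col19a1, Col22a1, Col24a1, Col25a1 and Col26a1, several of which are known from cartilage. Of these, 10 had a mean below 0.5 CPM in all 4 groups; the exception, Col9a3, reached a mean of 0.573 CPM in HFD_WT, and the highest mean below that mark was 0.465 CPM for Col26a1 in HFD_WT. Tested members numbered 8 of 11 fibrillar chains, all 6 type IV and all 6 type VI chains, and 13 of 21 other chains. Exons of 10 tested chains overlapped those of another annotated gene, with a longest overlap of 14 to 289 bases. Whether strand was used in counting is not given in the sources used here.

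Promoters of 4 chains that moved in different directions, and the stretch between a divergent pair that moved together, are shown because TET enzymes act at CpG; DNA methylation itself was not analysed here. Each is read 5′ to 3′ on the strand of the gene from RefSeq on GRCm38.p6 (the mm10 build), with every CpG in capitals, and covers the 250 bases before the start site. Col5a3 (chr9:20815068-20815317, minus strand, 17 CpG) and Col6a2 (chr10:76623631-76623880, minus strand, 6 CpG) belong to chains that were higher in TKO on both diets. Col3a1 (chr1:45311288-45311537, plus strand, no CpG) and Col16a1 (chr4:130047590-130047839, plus strand, 21 CpG) belong to chains that were lower in TKO on high-fat diet. As given below, the call of Col3a1 was lost with other scaling. Those of Col5a3 and Col6a2 on normal diet ended in some fits that left out a library. The stretch between the start sites of Col4a4 on the minus and Col4a3 on the plus strand (chr1:82586850-82586920, printed as the plus strand, 2 CpG) is 71 bases long.
Col5a3: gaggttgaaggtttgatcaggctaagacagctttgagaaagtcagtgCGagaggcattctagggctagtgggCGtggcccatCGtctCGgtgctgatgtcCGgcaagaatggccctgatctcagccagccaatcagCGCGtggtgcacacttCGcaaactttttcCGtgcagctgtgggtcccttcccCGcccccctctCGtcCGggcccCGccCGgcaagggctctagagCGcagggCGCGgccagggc
Col6a2: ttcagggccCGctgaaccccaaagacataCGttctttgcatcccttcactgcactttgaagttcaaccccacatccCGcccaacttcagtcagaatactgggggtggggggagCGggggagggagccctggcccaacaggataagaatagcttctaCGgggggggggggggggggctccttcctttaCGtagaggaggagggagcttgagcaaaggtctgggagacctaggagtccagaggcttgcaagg
Col3a1: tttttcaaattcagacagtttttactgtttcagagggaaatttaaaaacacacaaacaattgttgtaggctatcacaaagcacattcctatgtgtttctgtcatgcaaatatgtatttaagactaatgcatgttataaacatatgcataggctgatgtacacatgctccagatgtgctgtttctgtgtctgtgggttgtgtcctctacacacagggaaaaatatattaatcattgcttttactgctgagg
Col16a1: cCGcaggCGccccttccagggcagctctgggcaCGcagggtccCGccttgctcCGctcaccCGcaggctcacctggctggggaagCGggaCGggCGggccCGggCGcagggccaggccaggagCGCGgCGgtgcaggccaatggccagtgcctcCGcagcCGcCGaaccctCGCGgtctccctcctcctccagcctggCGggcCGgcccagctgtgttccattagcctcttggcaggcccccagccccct
Col4a4 and Col4a3: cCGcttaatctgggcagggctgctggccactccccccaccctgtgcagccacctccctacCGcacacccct

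The chains that were higher in TKO thus had 17 and 6 CpG in this window, and those that were lower had 0 and 21. Col6a2 has a second RefSeq start, 226 bases from the one used, whose window held 14 CpG. Over the 38 RefSeq windows of 35 matched members the median was 9.5 CpG in 250 bases, beside 6 over 32851 promoters of all genes. The GC box GGGCGG, read on both strands with overlaps allowed, occurred in 22 of the 38 windows and in 32.7% of all promoters. CCAAT occurred in 13 windows and in 33.8% of all, and TATAAA in 5 windows and in 12.4% of all. These matches describe letters and not binding.

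Chains of one collagen type often lie side by side. Col6a1 (chr10:76708792-76726168) and Col6a2 (chr10:76595762-76623630) are neighbours, as are Col6a6, Col6a5 and Col6a4 (chr9:105687809-106096783) and Col3a1 with Col5a2 (chr1:45311538-45503282). The type IV genes form divergent pairs: the first exons of Col4a1 and Col4a2 on chromosome 8 overlap by 22 bases, Col4a4 and Col4a3 on chromosome 1 start 71 bases apart, and Col4a6 and Col4a5 on chromosome X have 1308 bases between their starts. The results below give each of these neighbours in turn.

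On normal diet 7 of 33 chains were higher in TKO and 0 were lower, by limma on log2(CPM + 1) with Benjamini-Hochberg adjustment over 15597 genes at 0.05. Of all genes tested 2.16% were higher and 3.54% lower, 5.7% in either direction; with trimmed-mean (TMM) scaling factors 7 and 0 chains passed, beside 3.19% and 2.72% of all genes (5.91%). At an unadjusted p under 0.05, 10 chains were higher and 5 lower, and edgeR on the reads recovered from the CPM called 7 and 0. The median log2 change was 0.10 for the chains and -0.06 for all genes. The 7 depended on single libraries: leaving out ND_WT replicate 1, 2 or 3 gave 1, 2 or 11, leaving out ND_TKO replicate 1, 2 or 3 gave 1, 4 or 3, leaving out HFD_WT replicate 1 gave 4, and there were 0 with a fit of those 2 groups alone.

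On high-fat diet 7 chains were higher and 11 lower in TKO, beside 15.2% of all genes higher and 31.6% lower (46.7% in either direction), so the share of chains called lower was near that of all genes. Scaling moved the split of all genes, to 22.7% higher and 24.7% lower with TMM factors (47.4%), and their median from -0.10 to 0.01. The chains went from 7 and 11 to 8 and 10, and their median from -0.16 to -0.05. Leaving out any 1 library gave 6 to 8 higher and 10 to 12 lower chains.

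High-fat diet raised 19 chains and lowered 4 in wild type, beside 37.8% of all genes higher and 20.3% lower (58.1% in either direction). The median log2 change was 0.79 for the chains and 0.13 for all genes, or 0.64 and -0.00 with TMM factors, which left 18 and 4 chains beside 29.2% and 28.2% of all genes (57.4%). In TKO the diet raised 13 chains and lowered 1, beside 16.2% of all genes higher and 5.9% lower (22.1% in either direction). The median there was 0.54 for the chains and 0.07 for all genes. TMM factors and edgeR each left 9 chains higher and 1 lower in TKO, with 9.76% and 8.93% of all genes under TMM (18.7%), and the 13 became 8 without ND_TKO replicate 3. The groups did not overlap for 23.8% of all genes between genotypes on normal diet, 59.6% between genotypes on high-fat diet, 65.4% between diets in wild type and 39.4% between diets in TKO. The comparisons share their control libraries, ND_WT between genotype on normal diet and diet in wild type, and likewise for the other groups.

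**Figure D2:**
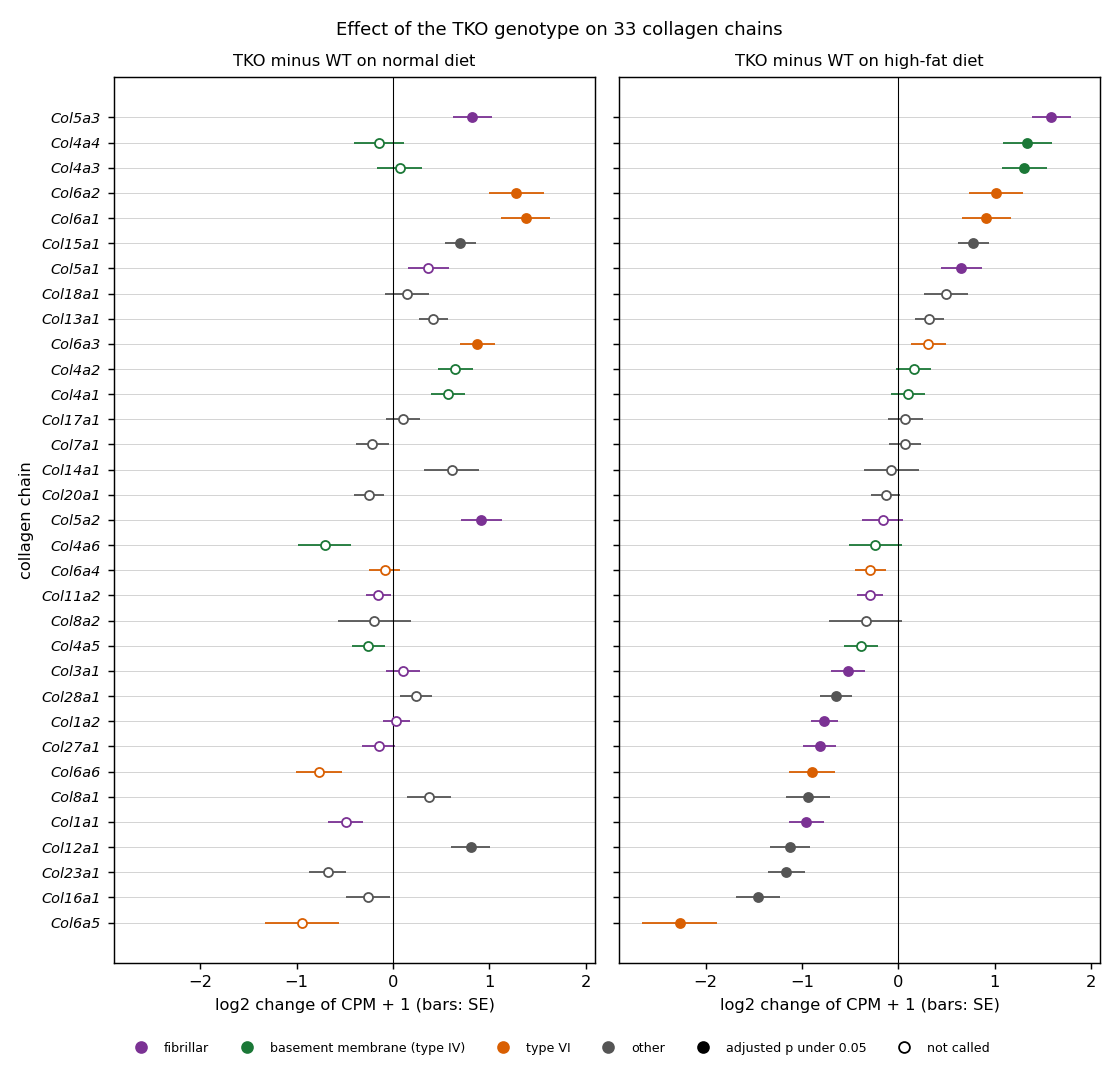
Log2 change of CPM + 1 in TKO against WT for the 33 tested chains on normal diet (left) and high-fat diet (right), ordered by the value on high-fat diet; bars are the standard error, colours the class, and filled points an adjusted p under 0.05. On normal diet the 7 filled points all lie to the right of 0, and on high-fat diet 7 lie to the right and 11 to the left.

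The fibrillar chains went in both directions between genotypes on high-fat diet. Of 8 tested, 2 were higher and 0 lower in TKO on normal diet (1 lower at an unadjusted p under 0.05, 0 by edgeR), beside 2.16% and 3.54% of all genes. In TKO on high-fat diet 2 were higher and 4 lower, beside 15.2% and 31.6% of all genes. High-fat diet raised 6 and lowered 0 in either genotype (0 lower also at an unadjusted p under 0.05 and by edgeR). It raised 37.8% and lowered 20.3% of all genes in wild type, and 16.2% and 5.9% in TKO.

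Col1a1 measured 207, 240 and 227 CPM (ND_WT), 206, 137 and 143 (ND_TKO), 653, 833 and 516 (HFD_WT) and 320, 304 and 395 (HFD_TKO). All 3 HFD_TKO libraries were below all 3 HFD_WT libraries, and both were above every library on normal diet. In TKO on high-fat diet Col1a1 fell by 0.95 on the log2 scale (SE 0.18, limma adjusted p = 0.0012), and on normal diet the change of -0.49 did not pass (adjusted p = 0.14). Col1a1 rose with the diet by 1.54 in wild type (adjusted p = 2.1e-05) and by 1.08 in TKO (adjusted p = 0.0030).

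Col1a2, the second chain of type I collagen, measured 430, 547 and 516 CPM (ND_WT), 566, 483 and 477 (ND_TKO), 1209, 1433 and 1044 (HFD_WT) and 629, 700 and 830 (HFD_TKO). The genotypes overlapped on normal diet and did not on high-fat diet. The change in TKO was 0.03 on normal diet (adjusted p = 0.93) and -0.77 on high-fat diet (SE 0.14, adjusted p = 0.00086), and the difference of these was called (-0.80, SE 0.20, adjusted p = 0.011). Col1a2 rose with the diet by 1.30 in wild type (adjusted p = 1.0e-05) and by 0.49 in TKO (adjusted p = 0.028). That call in TKO ended with TMM factors (0.078), with edgeR (0.079), and without ND_TKO replicate 2 (0.080), ND_TKO replicate 3 (0.10), HFD_TKO replicate 2 (0.055) or HFD_TKO replicate 3 (0.11).

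Col3a1 measured 980, 1378 and 1211 CPM (ND_WT), 1483, 1130 and 1216 (ND_TKO), 3351, 4083 and 2676 (HFD_WT) and 2337, 2085 and 2541 (HFD_TKO). It was the most abundant fibrillar transcript per kb in each group, and its genotypes were separate only on high-fat diet. There it fell by 0.52 in TKO (SE 0.18, adjusted p = 0.029), a call lost with TMM factors (-0.38, adjusted p = 0.13), edgeR (0.099) or no filter (0.061), and without HFD_WT replicate 1 (0.072), HFD_WT replicate 2 (0.13), HFD_TKO replicate 1 (0.054) or HFD_TKO replicate 2 (0.096). On normal diet its change was 0.11 (adjusted p = 0.79). Col3a1 rose with the diet by 1.49 in wild type (adjusted p = 1.9e-05) and by 0.87 in TKO (adjusted p = 0.0060).

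The type V chains join type I fibrils and limit their width, and the 3 of them differed from one another. Col5a3, the least widespread of them, measured 430, 419 and 687 CPM (ND_WT), 1091, 768 and 817 (ND_TKO), 503, 515 and 383 (HFD_WT) and 1193, 1451 and 1562 (HFD_TKO). On either diet every TKO library was above every wild-type library. It was higher in TKO by 0.82 on normal diet (SE 0.20, adjusted p = 0.038) and by 1.59 on high-fat diet (SE 0.20, adjusted p = 5.6e-05), where the mean was 3.0 times that of wild type. The diet changed it by -0.11 in wild type (adjusted p = 0.68) and raised it by 0.66 in TKO (adjusted p = 0.038), a call lost with TMM factors (0.074), edgeR (0.086), the replicate block (0.059) or no filter (0.063), and without ND_TKO replicate 2 (0.12), ND_TKO replicate 3 (0.12), HFD_WT replicate 1 (0.053), HFD_TKO replicate 2 (0.088) or HFD_TKO replicate 3 (0.12). The call on normal diet remained in 3 of the 12 fits that each left out 1 library, those without ND_WT replicate 3, HFD_WT replicate 3 or HFD_TKO replicate 1; it ended without ND_WT replicate 1 (0.14) or 2 (0.13), ND_TKO replicate 1 (0.13), 2 (0.051) or 3 (0.083), HFD_WT replicate 1 (0.059) or 2 (0.054), and HFD_TKO replicate 2 (0.054) or 3 (0.051). It also ended with no filter (0.064), the replicate block (0.066) and a fit of those 2 groups alone (0.11).

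Col5a2 measured 131, 140 and 263 CPM (ND_WT), 391, 296 and 285 (ND_TKO), 488, 507 and 452 (HFD_WT) and 429, 400 and 463 (HFD_TKO). It lies next to Col3a1 on chromosome 1, and its TKO libraries were above wild type on normal diet and overlapped them on high-fat diet. The change in TKO was 0.92 on normal diet (SE 0.22, adjusted p = 0.030) and -0.16 on high-fat diet (adjusted p = 0.57), and the difference of these was called (-1.08, SE 0.30, adjusted p = 0.020). The call on normal diet ended without ND_WT replicate 1 (0.12), ND_WT replicate 2 (0.11), ND_TKO replicate 1 (0.11), ND_TKO replicate 2 (0.056), ND_TKO replicate 3 (0.061) or HFD_WT replicate 1 (0.051). It also ended with no filter (0.052) and with a fit of those groups alone (0.13). Col5a2 rose with the diet by 1.5 in wild type (adjusted p = 9.0e-05), and its change in TKO was 0.42 (adjusted p = 0.18; called without ND_WT replicate 3, 0.017).

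Col5a1, the chain common to most type V molecules, measured 136, 155 and 236 CPM (ND_WT), 305, 188 and 189 (ND_TKO), 363, 418 and 325 (HFD_WT) and 625, 535 and 581 (HFD_TKO). The genotypes overlapped on normal diet, with ND_WT replicate 3 above 2 of the TKO libraries, and did not on high-fat diet. It was higher in TKO by 0.66 on high-fat diet (SE 0.21, adjusted p = 0.024), a call lost without HFD_WT replicate 1 (0.062), HFD_WT replicate 3 (0.085), HFD_TKO replicate 1 (0.069) or HFD_TKO replicate 3 (0.058). Col5a1 rose with the diet by 1.10 in wild type (adjusted p = 0.00088) and by 1.38 in TKO (adjusted p = 0.0018).

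Col27a1, a fibrillar chain known mainly from cartilage, measured 3.43, 3.64 and 2.1 CPM (ND_WT), 2.82, 2.97 and 2.09 (ND_TKO), 12.1, 12.9 and 9.91 (HFD_WT) and 5.40, 6.71 and 6.35 (HFD_TKO). The diet raised it in both genotypes, by 1.65 in wild type (adjusted p = 6.7e-06) and by 0.98 in TKO (adjusted p = 0.0033), and no library of one diet reached those of the other. It was lower in TKO by 0.82 on high-fat diet (SE 0.17, adjusted p = 0.0021). The remaining tested fibrillar chain, Col11a2, had group means of 0.609 to 0.973 CPM and passed in none of the 5 comparisons at 0.05; its change on high-fat diet was -0.29 (unadjusted p = 0.047, limma adjusted p = 0.090; with no filter the adjusted p was 0.047).

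Among the type IV chains the abundant pair Col4a1 and Col4a2 and the scarce pair Col4a3 and Col4a4 had different patterns. On normal diet 0 of 6 were called in TKO (2 higher and 1 lower at an unadjusted p under 0.05, 0 by edgeR), beside 5.7% of all genes. On high-fat diet 2 were higher and 0 lower (1 lower unadjusted, 0 by edgeR), beside 15.2% and 31.6% of all genes. The diet raised 2 and lowered 3 in wild type, beside 37.8% and 20.3% of all genes, so the raised count was near that share. In TKO it raised 1 and lowered 0 (0 lower unadjusted, and edgeR called 0 in either direction), beside 16.2% and 5.9% of all genes.

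Col4a1, with Col4a2 the chain of nearly every basement membrane, measured 1032, 1071 and 1545 CPM (ND_WT), 2198, 1607 and 1580 (ND_TKO), 2358, 2473 and 2185 (HFD_WT) and 2924, 2358 and 2281 (HFD_TKO). On normal diet the TKO libraries were above wild type by a narrow margin to ND_WT replicate 3, and on high-fat diet the genotypes overlapped. The change in TKO was 0.57 on normal diet (SE 0.18, adjusted p = 0.084; 0.75 with adjusted p = 0.011 without ND_WT replicate 3) and 0.10 on high-fat diet (adjusted p = 0.68). Col4a1 rose with the diet by 0.97 in wild type (adjusted p = 0.00059), and its change in TKO was 0.50 (adjusted p = 0.065; called without ND_WT replicate 3, 0.023, or ND_TKO replicate 1, 0.028).

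Col4a2 followed and measured 586, 613 and 944 CPM (ND_WT), 1335, 1014 and 960 (ND_TKO), 1472, 1606 and 1426 (HFD_WT) and 1925, 1619 and 1515 (HFD_TKO). The order of the libraries was nearly that of Col4a1, and the ratio of Col4a1 to Col4a2 CPM stayed between 1.46 and 1.76 in the 12 libraries. The change in TKO was 0.65 on normal diet (SE 0.18, adjusted p = 0.061; 0.86 with adjusted p = 0.0036 without ND_WT replicate 3, and 0.65 with 0.049 without HFD_TKO replicate 1) and 0.16 on high-fat diet (adjusted p = 0.50). Col4a2 rose with the diet by 1.10 in wild type (adjusted p = 0.00026) and by 0.62 in TKO (adjusted p = 0.031). The call in TKO ended with TMM factors (0.076), edgeR (0.080) or no filter (0.057), and without ND_TKO replicate 2 (0.089), ND_TKO replicate 3 (0.12), HFD_TKO replicate 1 (0.10) or HFD_TKO replicate 2 (0.057).

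Col4a3 and Col4a4, chains of the kidney filter and of few other basement membranes, were scarce. Col4a3 measured 4.05, 1.98 and 3.29 CPM (ND_WT), 3.51, 3.75 and 2.49 (ND_TKO), 0.742, 0.885 and 1.52 (HFD_WT) and 3.81, 5.42 and 3.06 (HFD_TKO). Col4a4 measured 6.29, 3.92 and 5.70 CPM (ND_WT), 3.28, 7.27 and 4.0 (ND_TKO), 1.48, 1.5 and 2.64 (HFD_WT) and 5.26, 7.90 and 5.62 (HFD_TKO). For both chains the HFD_WT libraries were the lowest 3 of the 12, and the other groups overlapped one another.

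In wild type the diet lowered Col4a3 (-0.99, SE 0.23, adjusted p = 0.0032) and Col4a4 (-1.14, SE 0.26, adjusted p = 0.0025). In TKO the changes were 0.25 for Col4a3 (adjusted p = 0.48) and 0.35 for Col4a4 (adjusted p = 0.36). On high-fat diet both were higher in TKO, Col4a3 by 1.31 (adjusted p = 0.00066) and Col4a4 by 1.34 (adjusted p = 0.0011). The difference between the diets was called for each (1.24, adjusted p = 0.015, and 1.49, adjusted p = 0.0094). Markers of the mesothelium, which covers the fat pad, moved with diet as well: the summed CPM of 6 markers was 230 to 345 in ND_WT, 126 to 228 in ND_TKO, 86.6 to 111 in HFD_WT and 37.9 to 181 in HFD_TKO, with none at 0 reads. Of these 6 the diet lowered 4 in wild type and raised 0 (0 also unadjusted and by edgeR), beside 20.3% and 37.8% of all genes. Between genotypes on high-fat diet 0 of the 6 passed (1 lower unadjusted, 0 by edgeR), beside 46.7% of all genes. The part of these markers in the result was not tested.

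Col4a6, known from basement membranes of epithelium and smooth muscle, had group means of 16.1 ± 3.40, 9.54 ± 2.79, 8.47 ± 1.75 and 7.29 ± 2.92 CPM (SD, n = 3) in ND_WT, ND_TKO, HFD_WT and HFD_TKO. The diet lowered it in wild type by 0.85 (adjusted p = 0.020), a call lost without ND_WT replicate 1 (0.062), ND_WT replicate 2 (0.068) or HFD_WT replicate 2 (0.076). Its partner Col4a5 had means of 33.3 ± 7.98, 27.5 ± 4.79, 38.5 ± 1.73 and 29.5 ± 5.64 CPM and passed in none of the comparisons; its change in TKO on high-fat diet was -0.39 (adjusted p = 0.088), which passed with a fit of those 2 groups alone (0.035), with the replicate block (0.038), and without ND_WT replicate 3 (0.046) or HFD_TKO replicate 2 (0.032).

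**Figure D3:**
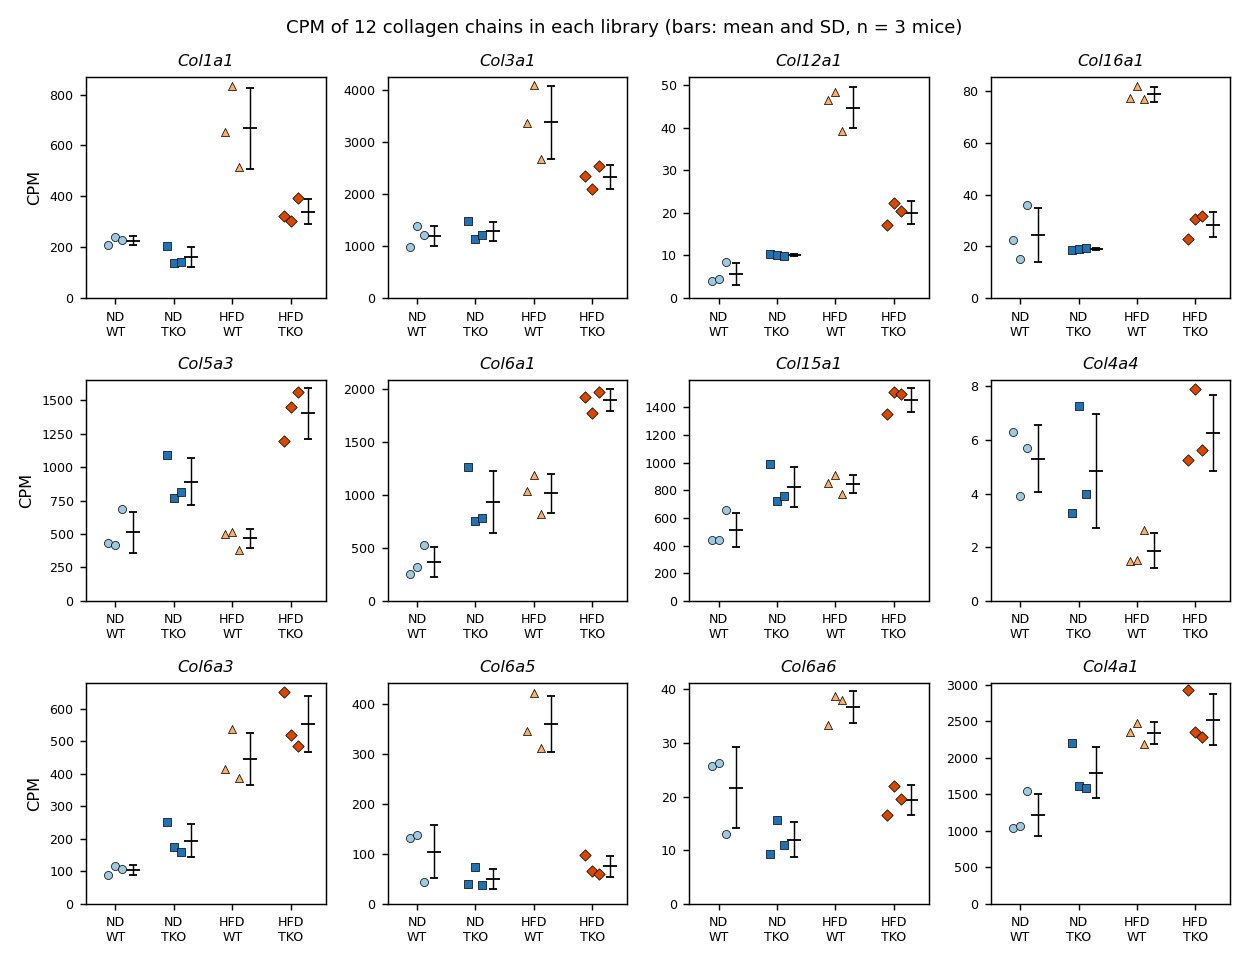
CPM of 12 collagen chains in each library, a panel per chain with its own linear axis from 0; points are libraries and the bar beside them is the mean and SD of 3 mice. The top row shows chains that were lower in HFD_TKO than in HFD_WT, the middle row chains that were higher, and the bottom row Col6a5 and Col6a6, which were lower, beside Col6a3 and Col4a1, whose genotypes overlap on high-fat diet.

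Type VI divided into 2 sets of chains. The chains of Col6a1, Col6a2 and Col6a3 assemble into the common type VI molecule, and those of Col6a4, Col6a5 and Col6a6 are related to the Col6a3 chain and can take its place. In TKO 3 of 6 were higher and 0 lower on normal diet (2 lower unadjusted, 0 by edgeR), beside 2.16% and 3.54% of all genes. On high-fat diet 2 were higher and 2 lower, beside 15.2% and 31.6% of all genes, so the lower count was near that share. The diet raised 5 in wild type and 3 in TKO and lowered 0 in both (0 also unadjusted and by edgeR). Of all genes it raised 37.8% and lowered 20.3% in wild type, and raised 16.2% and lowered 5.9% in TKO.

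Col6a1 measured 256, 315 and 522 CPM (ND_WT), 1265, 749 and 783 (ND_TKO), 1034, 1186 and 815 (HFD_WT) and 1921, 1774 and 1972 (HFD_TKO). TKO libraries were above wild type on either diet, and ND_TKO overlapped HFD_WT. It was higher in TKO by 1.38 on normal diet (SE 0.25, adjusted p = 0.0095; 0.060 with a fit of those 2 groups alone) and by 0.92 on high-fat diet (SE 0.25, adjusted p = 0.011). Col6a1 rose with the diet by 1.52 in wild type (adjusted p = 0.00030) and by 1.06 in TKO (adjusted p = 0.013; 0.060 without ND_TKO replicate 3). The difference between the genotype effects was -0.46 and did not pass (adjusted p = 0.38).

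Col6a2 measured 232, 280 and 490 CPM (ND_WT), 1164, 607 and 651 (ND_TKO), 1009, 1166 and 791 (HFD_WT) and 2097, 1788 and 2047 (HFD_TKO). It kept close to its neighbour Col6a1, with a ratio of Col6a1 to Col6a2 CPM of 0.916 to 1.23 over the 12 libraries, and its genotypes were likewise separate on either diet. It was higher in TKO by 1.28 on normal diet (SE 0.28, adjusted p = 0.023) and by 1.01 on high-fat diet (SE 0.28, adjusted p = 0.012). The call on normal diet ended without ND_WT replicate 1 (0.096), ND_WT replicate 2 (0.078) or ND_TKO replicate 1 (0.073), and with a fit of those groups alone (0.10). Col6a2 rose with the diet by 1.62 in wild type (adjusted p = 0.00042) and by 1.35 in TKO (adjusted p = 0.0071).

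Col6a3, whose chain carries the C-terminal fragment endotrophin, measured 88.8, 116 and 106 CPM (ND_WT), 252, 173 and 157 (ND_TKO), 414, 536 and 387 (HFD_WT) and 651, 520 and 486 (HFD_TKO). Diet separated its libraries in both genotypes, and genotype separated them on normal diet only. It was higher in TKO by 0.88 on normal diet (SE 0.18, adjusted p = 0.018), which was lost without ND_WT replicate 1 (0.080) or ND_TKO replicate 1 (0.054), and with a fit of those groups alone (0.060). On high-fat diet its change was 0.31 (adjusted p = 0.19), and the difference between diets did not pass (-0.57, adjusted p = 0.13). Col6a3 rose with the diet by 2.09 in wild type (adjusted p = 1.7e-06) and by 1.52 in TKO (adjusted p = 0.0010).

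Col6a5 went in the opposite direction. It measured 131, 138 and 44.1 CPM (ND_WT), 39.1, 72.5 and 38.3 (ND_TKO), 345, 422 and 312 (HFD_WT) and 98.3, 66.0 and 60.3 (HFD_TKO). The HFD_WT libraries were well above all others, and ND_WT replicate 3 lay within the TKO range while the other 2 ND_WT libraries lay above the HFD_TKO libraries. In TKO on high-fat diet it fell by 2.27 (SE 0.39, adjusted p = 0.00047), to 0.208 of the wild-type mean. On normal diet the change was -0.95 (SE 0.39, adjusted p = 0.17), or -1.48 (adjusted p = 0.0055) without ND_WT replicate 3. The diet raised it by 1.93 in wild type (adjusted p = 0.0011), and the change in TKO was 0.61 (adjusted p = 0.29).

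Col6a6, next to Col6a5, had means of 21.7 ± 7.55, 12 ± 3.24, 36.7 ± 2.97 and 19.4 ± 2.75 CPM (SD, n = 3) in the 4 groups. It was lower in TKO on high-fat diet by 0.89 (SE 0.24, adjusted p = 0.0094), and on normal diet its change was -0.77 (adjusted p = 0.086; -1.09 with 0.0031 without ND_WT replicate 3). The diet raised it by 0.79 in wild type (adjusted p = 0.014), and its change in TKO was 0.67 (adjusted p = 0.067; called without ND_WT replicate 3, 0.010, without ND_TKO replicate 2, 0.040, and with a fit of those groups alone, 0.043). Col6a4, the third of that row on chromosome 9, stayed between 0.280 and 0.909 CPM and passed in none of the comparisons. The ratio of Col6a5 to Col6a3 CPM was 0.788 to 0.834 in HFD_WT and 0.124 to 0.151 in HFD_TKO, and 0.415 to 1.47 in ND_WT and 0.155 to 0.418 in ND_TKO.

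Among the 13 other tested chains 2 were higher and 0 lower in TKO on normal diet (1 lower unadjusted, 0 by edgeR), beside 2.16% and 3.54% of all genes. On high-fat diet 1 was higher and 5 lower in TKO, beside 15.2% and 31.6% of all genes, which is no result about these chains as a class. Col15a1, a chain between basement membrane and stroma, measured 444, 440 and 656 CPM (ND_WT), 994, 726 and 760 (ND_TKO), 855, 909 and 776 (HFD_WT) and 1354, 1509 and 1500 (HFD_TKO). The genotypes did not overlap on either diet, and the 3 HFD_TKO libraries were the highest of the 12. It was higher in TKO by 0.70 on normal diet (SE 0.16, adjusted p = 0.027) and by 0.78 on high-fat diet (SE 0.16, adjusted p = 0.0017). The call on normal diet was lost without ND_WT replicate 1 (0.11), ND_WT replicate 2 (0.095), ND_TKO replicate 1 (0.095) or ND_TKO replicate 3 (0.061), and with a fit of those groups alone (0.12). Col15a1 rose with the diet by 0.74 in wild type (adjusted p = 0.0018) and by 0.83 in TKO (adjusted p = 0.0049). Its relative Col18a1, the source of endostatin, had means of 231 ± 107, 240 ± 32.6, 272 ± 12.6 and 386 ± 22.2 CPM. Between genotypes on high-fat diet it was not called (0.50, adjusted p = 0.093), but passed with TMM factors (0.64, adjusted p = 0.039), with edgeR (0.046) and with a fit of those groups alone (0.00074). It also passed without ND_WT replicate 2 (0.049) or replicate 3 (0.0015), which had the highest ND_WT value of 353 CPM. Without replicate 3 its changes of 0.50 in TKO on normal diet (0.016) and 0.69 with diet in each genotype (0.00028 in wild type, 0.0010 in TKO) passed too. The change with diet in TKO also passed without ND_WT replicate 2 (0.025) and with a fit of those groups alone (0.0084).

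The fibril-associated chains sit on the surface of type I fibrils. Col12a1 measured 3.86, 4.47 and 8.53 CPM (ND_WT), 10.4, 10.1 and 9.78 (ND_TKO), 46.5, 48.4 and 39.2 (HFD_WT) and 17.0, 22.4 and 20.5 (HFD_TKO). Every TKO library was above wild type on normal diet, and every TKO library was below wild type on high-fat diet. The change in TKO was 0.81 on normal diet (SE 0.21, adjusted p = 0.043) and -1.13 on high-fat diet (SE 0.21, adjusted p = 0.00081), and their difference was -1.93 (SE 0.29, adjusted p = 0.00049). Col12a1 rose with the diet by 2.85 in wild type (adjusted p = 3.6e-07), the largest change among the 33 chains in any of the 5 comparisons, and by 0.91 in TKO (adjusted p = 0.0099). The call on normal diet ended in 10 of the 12 fits that left out 1 library, with an adjusted p of 0.056 to 0.15, and held without ND_WT replicate 3 or HFD_TKO replicate 1; it also ended with no filter (0.070), with the replicate block (0.060) and with a fit of those 2 groups alone (0.15).

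Col16a1, another such chain, measured 22.5, 15.0 and 35.8 CPM (ND_WT), 18.6, 19.0 and 19.5 (ND_TKO), 77.2, 82.0 and 77.1 (HFD_WT) and 22.7, 30.4 and 31.8 (HFD_TKO). HFD_WT stood alone, with the other 9 libraries between 15.0 and 35.8. It was lower in TKO by 1.46 on high-fat diet (SE 0.23, adjusted p = 0.00025), with a change of -0.26 on normal diet (adjusted p = 0.54) and a difference of -1.20 (adjusted p = 0.016). Col16a1 rose with the diet by 1.73 in wild type (adjusted p = 4.6e-05), and its change in TKO was 0.54 (adjusted p = 0.11; called without ND_WT replicate 2, 0.033, or replicate 3, 0.018, and with a fit of those groups alone, 0.029). Col14a1, a further fibril-associated chain, had means of 41.3 ± 23.9, 58.2 ± 8.53, 120 ± 22.3 and 113 ± 11.9 CPM; its genotypes overlapped on both diets, and ND_WT replicate 3 was at 68.8 CPM against 29.5 and 25.8 in the other 2 ND_WT libraries. Col14a1 rose with the diet by 1.64 in wild type (adjusted p = 0.00041). Its rise in TKO (0.96, adjusted p = 0.034) ended without any 1 of the 6 TKO libraries (0.050 to 0.12), with TMM factors (0.051), edgeR (0.060), no filter (0.056) or the replicate block (0.050). Without ND_WT replicate 3 it was also higher in TKO on normal diet (1.04, adjusted p = 0.0021).

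Col8a1, a short-chain collagen of vessel walls, measured 12.6, 10.4 and 17.3 CPM (ND_WT), 20.1, 18.1 and 14.2 (ND_TKO), 56.4, 65.4 and 38.5 (HFD_WT) and 21.4, 26.9 and 33.6 (HFD_TKO). As for Col16a1, the HFD_WT libraries were the highest 3 of the 12. It was lower in TKO by 0.93 on high-fat diet (SE 0.23, adjusted p = 0.0054), with 0.37 on normal diet (adjusted p = 0.37) and a difference of -1.30 (adjusted p = 0.010). Col8a1 rose with the diet by 1.91 in wild type (adjusted p = 2.1e-05), and its change in TKO was 0.61 (adjusted p = 0.078; 0.049 without ND_WT replicate 3).

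Col23a1, a transmembrane collagen, measured 10.7, 9.86 and 11 CPM (ND_WT), 5.72, 7.6 and 5.38 (ND_TKO), 8.16, 7.17 and 11.9 (HFD_WT) and 2.79, 4.64 and 3.02 (HFD_TKO). TKO libraries were below wild type on either diet. It fell in TKO by 1.16 on high-fat diet (SE 0.19, adjusted p = 0.00041), and its change on normal diet was -0.68 (SE 0.19, adjusted p = 0.063; called without HFD_WT replicate 3, 0.045, or HFD_TKO replicate 2, 0.049). It was the single chain that the diet lowered in TKO (by 0.70, adjusted p = 0.024), a call lost without ND_TKO replicate 2 (0.083), HFD_TKO replicate 1 (0.082) or HFD_TKO replicate 3 (0.082). The von Willebrand domain collagen gene Col28a1 had means of 9.68 ± 1.62, 11.6 ± 2.14, 14.3 ± 1.92 and 8.83 ± 1.52 CPM; it was lower in TKO on high-fat diet by 0.65 (adjusted p = 0.0076), and the difference from normal diet was -0.88 (adjusted p = 0.015). Its rise on high-fat diet in wild type (0.53, adjusted p = 0.018) ended with TMM factors (0.057), edgeR (0.056), and without ND_WT replicate 2 (0.076), HFD_WT replicate 1 (0.053) or HFD_WT replicate 3 (0.069).

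The other tested chains were scarce. Col20a1, a minor fibril-associated chain, had means of 2.77 ± 0.588, 2.15 ± 0.268, 1.71 ± 0.0543 and 1.5 ± 0.448 CPM (SD, n = 3) and was lowered by the diet in wild type by 0.46 (adjusted p = 0.023), a call lost without ND_WT replicate 1 (0.10), HFD_WT replicate 1 (0.059) or HFD_WT replicate 2 (0.056). Col13a1, a transmembrane chain, measured 0.239, 0.231 and 0.548 CPM (ND_WT), 0.554, 1.07 and 0.756 (ND_TKO), 0.196, 0.177 and 0.347 (HFD_WT) and 0.605, 0.690 and 0.366 (HFD_TKO). Its TKO libraries were above wild type on either diet by narrow margins, and its changes of 0.42 (adjusted p = 0.13) and 0.32 (adjusted p = 0.10) did not pass, though edgeR called it on high-fat diet (adjusted p = 0.039). Col7a1 of anchoring fibrils (0.554 to 1.38 CPM), Col8a2 (1.49 to 6.20) and Col17a1 of hemidesmosomes (0.144 to 0.960) passed in none of the 5 comparisons.

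The mix of classes shifted accordingly. Summed CPM over the 44 chains was 5459 to 8026 in ND_WT, 8381 to 11754 in ND_TKO, 12744 to 16837 in HFD_WT and 15797 to 17111 in HFD_TKO, so the genotypes did not overlap on normal diet and did on high-fat diet. Type VI made up 14.9% to 18.0% of the summed collagen CPM per kb in ND_WT, 23.3% to 28.3% in ND_TKO, 20.4% to 22.1% in HFD_WT and 31.3% to 32.9% in HFD_TKO. No 2 of these ranges overlapped, and on either diet TKO had the larger share. Fibrillar chains made up 38.4% to 47.1%, 32.8% to 35.8%, 42.8% to 46.5% and 30.6% to 35.3% in the same order, with every TKO library below every wild-type library. Type IV took 25.2% to 27.9%, 26.2% to 27.9%, 21.6% to 25.6% and 19.3% to 24.7%, and its genotypes overlapped on both diets. Shares of a whole constrain each other, and they are given as a description with no test.

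**Figure D4:**
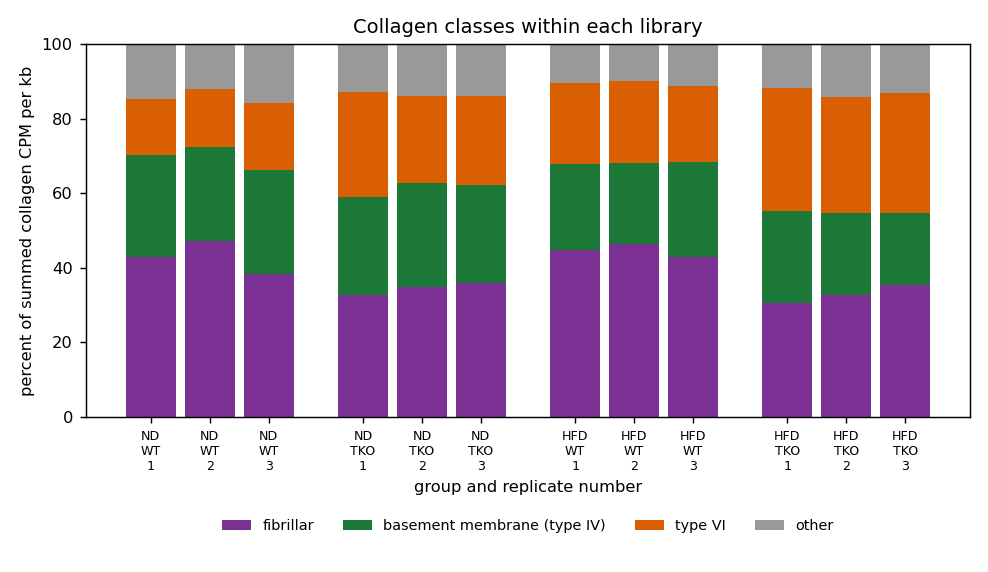
Share of the summed collagen CPM per kb held by fibrillar, type IV, type VI and other chains in each library, in percent, 1 bar per library. The type VI segment is 14.9% to 18.0% in ND_WT and 31.3% to 32.9% in HFD_TKO, and the fibrillar segment is smaller in each TKO bar than in any wild-type bar.

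The ratio of Col5a3 to Col1a1 CPM describes 2 fibrillar chains with opposite changes in TKO on high-fat diet. As the ratio follows from those changes, it is no further support for a shift. It was 1.74 to 3.03 in ND_WT, 5.30 to 5.71 in ND_TKO, 0.619 to 0.770 in HFD_WT and 3.72 to 4.78 in HFD_TKO. The TKO libraries were above wild type on either diet, and the ND_WT value of 3.03 was that of replicate 3. The ratio of Col1a1 to Col1a2 CPM was 0.439 to 0.480, 0.283 to 0.364, 0.494 to 0.581 and 0.434 to 0.510 in the same order.

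The effect of TKO differed between the diets for 8 of 33 chains, 2 with a more positive change on high-fat diet (Col4a3 and Col4a4) and 6 with a more negative one (Col1a2, Col5a2, Col8a1, Col12a1, Col16a1 and Col28a1), beside 9.94% and 18.8% of all genes (28.7% in either direction). With TMM factors 3 and 6 passed, beside 12.7% and 16.2% of all genes (29%). These counts were near the shares of all genes and are no result about the chains as a class. The same 8 passed with the smaller pseudocount, with no filter, with TMM factors, with edgeR, with the replicate block and without each of the 12 libraries in turn. For Col12a1 the 2 effects had opposite signs and both were called. Of the 6 type VI chains 0 passed this test (1 lower unadjusted, 0 by edgeR), so a difference of the type VI effects between diets was not shown. The values were -0.46 for Col6a1, -0.27 for Col6a2, -0.57 for Col6a3 and -1.33 for Col6a5 (adjusted p = 0.092; 0.042 with the replicate block). Col5a3 had 0.77 (adjusted p = 0.066; 0.050 with TMM factors and 0.038 to 0.048 without ND_WT replicate 2, ND_TKO replicate 1 or HFD_TKO replicate 1), Col27a1 had -0.67 (0.058; 0.032 with the block, and 0.041, 0.040 and 0.049 without ND_WT replicate 2, ND_TKO replicate 3 or HFD_WT replicate 3) and Col3a1 had -0.63 (0.081; 0.035 without HFD_WT replicate 3). Without ND_WT replicate 3, Col4a1 (-0.65, 0.034), Col4a2 (-0.70, 0.017) and Col14a1 (-1.11, 0.0023) passed as well.

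Genes that act on collagen chains were read against all genes tested, of which the diet raised 37.8% and lowered 20.3% in wild type and raised 16.2% and lowered 5.9% in TKO, and of which 15.2% were higher and 31.6% lower in TKO on high-fat diet. The first list holds the enzymes and chaperones that modify and fold the chains. Of 23 tested genes of 24 listed, high-fat diet raised 16 and lowered 0 in wild type (0 lower unadjusted; with TMM factors or edgeR, 13 higher and 2 lower, so the lower side depends on scaling), with Plod2, the lysyl hydroxylase of telopeptides, at 1.64 and the collagen galactosyltransferase Colgalt1 at 1.23. In TKO it raised 14 and lowered 0 (0 also unadjusted and by edgeR), led by the collagen chaperone Serpinh1 at 1.31 (adjusted p = 0.0039). Between genotypes on high-fat diet 3 were higher and 6 lower (6 and 5 with TMM factors), near the shares of all genes, so that the count is no result about the list. P3h3, a prolyl 3-hydroxylase family gene (-0.80), Plod2 (-0.78) and the chaperone gene Fkbp10 (-0.68) fell, while Serpinh1 was higher by 0.79 (adjusted p = 0.018; 0.061 without HFD_WT replicate 3 and 0.070 without HFD_TKO replicate 1). On normal diet Plod2 was higher by 0.40 (adjusted p = 0.044) and Creb3l1, a transcription factor for secretory load, fell by 0.52 (adjusted p = 0.025). The median of the list between genotypes on high-fat diet was -0.03, beside -0.10 for all genes.

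Of 13 genes for trimming and crosslinking procollagen, the diet raised 11 in wild type and 5 in TKO and lowered 0 in both (0 unadjusted and by edgeR). On high-fat diet TKO had 4 lower and 0 higher (1 higher unadjusted, 1 by edgeR), with the lower count near the 31.6% of all genes. These were the procollagen C-proteinase enhancer Pcolce (-1.22, adjusted p = 6.4e-06), lysyl oxidase Lox (-1.07, adjusted p = 0.0015), the N-proteinase Adamts14 (-0.88) and the lysyl oxidase-like gene Loxl3 (-0.81). On normal diet Sparc, a collagen-binding matricellular protein, was higher by 0.99 (adjusted p = 0.030) and 0 were lower (1 unadjusted, 0 by edgeR). The list's median on high-fat diet was -0.23.

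Of 11 tested receptors and uptake genes of 12 listed, the diet raised 7 in wild type and 4 in TKO and lowered 0 (0 also unadjusted and by edgeR). TKO had 4 lower and 0 higher on high-fat diet (0 higher unadjusted and by edgeR), again near the background for lower genes. These were the leukocyte collagen receptor Lair1 (-3.55, adjusted p = 7.0e-08), the endocytic receptor Mrc2 (-2.38), the hyaluronan receptor Cd44 (-2.03) and the receptor kinase Ddr2 (-0.70). On normal diet 0 passed (2 higher unadjusted, 0 by edgeR).

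The next list holds proteases of collagen breakdown and their inhibitors. Of 9 tested of 10 listed, the diet raised 7 in wild type and lowered 0 (1 unadjusted, 2 by edgeR and with TMM factors), with cathepsin K gene Ctsk at 3.81 and stromelysin gene Mmp3 at 3.79, and in TKO it raised 3. On high-fat diet TKO had 7 lower and 1 higher: Mmp3 (-3.16, adjusted p = 2.0e-06), Ctsk (-2.80, adjusted p = 3.0e-07), the membrane protease Mmp14 (-1.97) and the gelatinase Mmp2 (-1.86) fell most, while the inhibitor Timp3 was higher by 0.43 (adjusted p = 0.033; not passed with no filter or in 4 of 12 fits without 1 library, up to 0.13). On normal diet Mmp14 (-0.54, adjusted p = 0.027) and the inhibitor Timp2 (-0.41, adjusted p = 0.045) fell. The list's median between genotypes on high-fat diet was -1.68.

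Of 12 fibrogenic ligands and receptors the diet raised 9 in wild type and 2 in TKO. TKO had 7 lower and 0 higher on high-fat diet (0 higher unadjusted and by edgeR): those with the largest changes were the ligand Tgfb1 (-1.47, adjusted p = 1.3e-06), the progenitor receptor Pdgfra (-1.45) and the receptors Tgfbr1 (-1.37) and Tgfbr2 (-1.01). On normal diet Tgfbr2 fell by 0.34 (adjusted p = 0.041) and 0 were higher (2 unadjusted, 0 by edgeR).

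The other basement membrane genes were mostly higher in TKO where they passed. Of 15, TKO had 7 higher and 2 lower on high-fat diet: nidogen genes Nid2 and Nid1 were higher by 1.5 (adjusted p = 2.0e-05) and 0.70 (adjusted p = 0.0054), the laminin gene Lamc3 by 0.60 and the perlecan gene Hspg2 by 0.59. On normal diet Nid1 was higher by 0.66 (adjusted p = 0.045) and Lamb2 fell by 0.59 (adjusted p = 0.0014). Lamb2 was also called between genotypes on high-fat diet, and its difference of genotype effects was called as more positive on high-fat diet. Both of these Lamb2 calls held in all 12 fits without 1 library. Of this list 4 genes passed that difference as higher and 0 as lower, beside 9.94% and 18.8% of all genes. The diet raised 4 and lowered 4 in wild type (4 and 6 with TMM factors), and raised 6 and lowered 1 in TKO. The list's median between genotypes on high-fat diet was 0.28, beside 0.13 for the 6 type IV chains. Of the 8 calls on genes of these lists between genotypes on normal diet, that of Lamb2 held in every fit; those of Creb3l1 and Mmp14 each ended in 4 of the 12 fits without 1 library, that of Sparc in 6, those of Plod2 and Tgfbr2 in 9 and those of Timp2 and Nid1 in 10, and these 7 also ended with a fit of those 2 groups alone.

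Markers of the cells that can make or remodel collagen were read in the same libraries, beside the shares of all genes tested. In TKO 2.16% of all genes were higher and 3.54% lower on normal diet, and 15.2% and 31.6% on high-fat diet. With TMM factors the shares on high-fat diet were 22.7% and 24.7%. The diet raised 37.8% of all genes and lowered 20.3% in wild type. The summed CPM of 10 fibroblast and progenitor markers was 2593 to 3213 in ND_WT, 3017 to 3365 in ND_TKO, 4562 to 5113 in HFD_WT and 2598 to 3261 in HFD_TKO; Pdgfra and Pdgfrb are also in the fibrogenic list. On high-fat diet 6 of the 10 were lower and 0 higher in TKO (0 higher unadjusted and by edgeR), and on normal diet Lum and Dpt, both collagen-binding matrix proteins, were higher by 1.42 and 1.12 and Cd34 fell by 0.46. The summed CPM of 7 macrophage markers was 271 to 366, 204 to 294, 2508 to 2900 and 501 to 568 in the same order, and all 7 were lower in TKO on high-fat diet. Of 8 adipocyte markers 7 were higher in TKO on high-fat diet and 7 were lowered by the diet in wild type. No marker of these 3 lists was at 0 reads in any library. Their part in the collagen results was not tested.

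The other lists moved less or held fewer reads. They stand beside the same shares of all genes, 2.16% higher and 3.54% lower in TKO on normal diet and 15.2% and 31.6% on high-fat diet. Of 6 endothelial markers 0 were called between genotypes on either diet (on normal diet 2 were higher unadjusted and by edgeR; on high-fat diet 1 was lower unadjusted and 2 higher by edgeR), with sums of 603 to 684, 642 to 822, 672 to 754 and 642 to 745 CPM. Of 5 mural markers 0 were called between genotypes (2 higher unadjusted on each diet; 1 and 3 higher by edgeR), with sums of 261 to 470, 392 to 479, 410 to 498 and 531 to 623 CPM. Of 5 myofibroblast markers 1 was higher in TKO on normal diet (Postn, 0.74) and 1 on high-fat diet (Myl9, 0.48), with sums of 287 to 391, 327 to 423, 555 to 665 and 481 to 657 CPM. All 5 T and NK cell markers were lower in TKO on high-fat diet, with sums of 1.86 to 4.70, 4.18 to 6.65, 13.6 to 42.2 and 3.68 to 5.06 CPM. All 4 B and plasma cell markers were lower there too, with sums of 9.30 to 65.7, 12.7 to 36.7, 67.0 to 247 and 7.49 to 11.2 CPM. Of 2 tested Schwann cell markers 0 and of 2 tested skeletal muscle markers 1 (Acta1, higher by 1.35) were called there. Their part in the collagen results was not tested.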

How the data were processed

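Total RNA, per the labels, of whole epididymal fat from 12 mice was sequenced, and the deposited table gives CPM per gene and library, made by the authors. The submitters' processing notes name STAR 2.7.3a, featureCounts 2.0.0, DESeq2 and mm10, without roles; the annotation, the strand setting and the treatment of reads that map to several places are not stated there. In every library all CPM values were whole multiples of 1 read within 0.05 read, after an offset of 0.01 read, so reads were recovered (20973140 to 25606629 a library). A count of 0 allows up to 3 reads (0.117 to 0.143 CPM), which covers counting error only. The 3 rows without a symbol held 0.0313% to 0.0679% of CPM and were left out.

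Genes with at least 0.5 CPM in at least 3 libraries (15597) were tested with limma 3.58.1 (trend, R 4.3.3) on log2(CPM + 1), with 1 mean per group, all 12 libraries in 1 fit and Benjamini-Hochberg adjustment over all genes tested at 0.05. Changes are on that scale, which understates those of low genes. The procedure was also run on simulated counts in which a small set of genes changed in HFD_TKO alone, with equal numbers raised and lowered. Those counts had no library that stood apart and no broad change, so they cannot show how the procedure performs under such conditions. edgeR 4.0.16 (quasi-likelihood) on the recovered reads called 848 genes between genotypes on normal diet, 7346 on high-fat diet, 8889 and 2873 with diet in wild type and TKO, and 4332 for the difference of genotype effects. The alternatives were a pseudocount of 0.5, no filter, TMM factors, edgeR, only the groups compared, a replicate block, and leaving out each library. Lengths are of the longest coding transcript (GENCODE M21). Values per library and tests are given for Col1a1, Col1a2, Col3a1, Col4a1, Col4a2, Col6a1, Col6a2 and Col6a3 and for the 6 called chains with the largest change of each comparison; of each pathway list up to 4 called genes are named, by size of change. Members outside this rule are named to account for them or because a call of theirs changed with a setting. The members, lists and tests were chosen with earlier results of these data known. Promoters came from RefSeq (GRCm38.p6).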

Additional observations from a re-analysis of the deposited data

Results flagged for a closer look

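For 8 of 33 chains the effect of TKO differed between normal and high-fat diet by the interaction term of limma, adjusted over all 15597 genes. Of all genes 28.7% passed this test, so the count is no result about the chains as a class. The log2 difference (high-fat minus normal diet) was -0.8026 for Col1a2 (adjusted p = 0.0106), -1.081 for Col5a2 (adjusted p = 0.0196), -1.303 for Col8a1 (adjusted p = 0.0103), -1.933 for Col12a1 (adjusted p = 0.000494), -1.196 for Col16a1 (adjusted p = 0.0157) and -0.8844 for Col28a1 (adjusted p = 0.0154). It was 1.238 for Col4a3 (adjusted p = 0.0147) and 1.489 for Col4a4 (adjusted p = 0.00944). The sign of the effect changed between diets, with both called, for Col12a1 alone among the 33 chains; its call on normal diet ended in 10 of the 12 fits without 1 library, with no filter, with the replicate block and with those 2 groups alone (adjusted p of 0.056 to 0.15). For Col1a2, Col4a3, Col4a4, Col8a1, Col12a1 and Col16a1 the HFD_WT libraries stood outside the range of the other 9 libraries.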

How the results depend on the processing

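Of 70 calls on chains, the smaller pseudocount kept 70, TMM factors and edgeR each 64, no filter 63, the replicate block 66 and leaving out 1 library 61 to 70; with only the groups compared 55 of 62 remained. No called chain reversed. Among the counts of chains in each direction and of all genes called, those that moved by over 1.5 times were, leaving out a library aside, the chains higher in TKO on normal diet, 4 with no filter and 0 with only those groups, and all genes called there, 280 against 889 with only those groups. By direction, TMM factors moved all genes with diet in TKO from 2525 to 1523 higher and from 921 to 1393 lower, and the folding genes higher in TKO on high-fat diet from 3 to 6. Leaving out 1 library gave 1 to 11 chains higher, 0 to 2 lower and 350 to 1853 genes called between genotypes on normal diet, and 6 to 8, 10 to 12 and 6103 to 7813 on high-fat diet. It gave 18 to 20, 2 to 4 and 7897 to 9343 with diet in wild type, 8 to 19, 0 to 1 and 1716 to 4296 with diet in TKO, and 2 to 3, 6 to 9 and 3541 to 5041 for the interaction.

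Of 95 changes of chains that were not called, leaving out 1 library turned the sign of 30, and of 0 that were called. Among these 30 the text gives 7: Col1a2 (-0.06818 to 0.1057), Col3a1 (-0.0271 to 0.2187), Col16a1 (-0.5542 to 0.04496) and Col18a1 (-0.09177 to 0.4999) between genotypes on normal diet, Col4a1 on high-fat diet (-0.01011 to 0.1689), Col5a3 with diet in wild type (-0.2313 to 0.1255) and the interaction of Col6a2 (-0.5808 to 0.02831). The sign turned without ND_WT replicate 1 or ND_TKO replicate 1 for Col1a2 and Col3a1, ND_WT replicate 3 for Col16a1, ND_WT replicate 2 for Col18a1, HFD_TKO replicate 1 for Col4a1, ND_WT replicate 3 or HFD_WT replicate 3 for Col5a3 and ND_TKO replicate 1 for Col6a2; the cause was not tested.

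The replicate numbers were shared between groups. Of 18 same-numbered pairs 5 deviated together (r over 0.1; range -0.4965 to 0.5616), and 0 libraries correlated best with their own number in every other group. These values gave no sign that the numbers pair the mice, but with 3 libraries a group they cannot exclude it. With the replicate block 5 chains were higher and 0 lower on normal diet, 7 and 12 on high-fat diet, 19 and 4 with diet in wild type, 11 and 1 in TKO, and 2 and 8 for the interaction. The limits are 3 mice a group and the depth: 3 reads were worth 0.117 to 0.143 CPM, the level that a count of 0 allows.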
